A study of Mus musculus with 30 samples.

Results

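The libraries described here are from bone marrow-derived macrophages (BMDMs), macrophages grown in culture from mouse bone marrow, of 3 Mertk knockout lines and of wild-type C57BL/6 mice. The members are the 9 knockout libraries and the 3 C57BL/6 libraries of the BMDM table, 12 of the 30 libraries of the series. The 3 knockout groups were pooled as the mean of the 3 group means, each with the same weight, and set against C57BL/6, and the genes that lay on the same side of C57BL/6 in each of the 3 lines are reported. The other 18 libraries are from retinal pigment epithelium (RPE) at postnatal day 25, and are used only where the same genes are set beside them. The question of the comparison is which genes differ from wild type in macrophages whichever way Mertk was disrupted.

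All groups are labelled C57BL/6J in strain, and each has 3 libraries labelled as separate biological replicates. Wild-type mice are called B6 WT. Mertk-/-V1 carries a disruption of exon 17 made in embryonic stem cells of strain 129P2 and backcrossed to C57BL/6J. Mertk-/-V2 lacks exon 18 through germ-line excision of a floxed allele that came from C57BL/6NJ embryos. Mertk-/-V3 lacks exons 3 to 4 through CRISPR/Cas9 editing of C57BL/6NJ eggs. The cells of all groups had been put through macrophage differentiation and received no other labelled treatment. Each knockout group is a single line with its own breeding history, and nothing in the labels makes the B6 WT mice littermates of a line, so the loss of Mertk, the background of a line and the day of a culture cannot be told apart in a difference between 1 line and B6 WT. The 3 comparisons also share the same 3 B6 WT libraries, so that a direction shared by the 3 lines is a count and no independent replication.

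MERTK is a receptor tyrosine kinase of the TAM family, together with TYRO3 and AXL, and is bound through the bridging ligands GAS6 and protein S, which recognise phosphatidylserine on dying cells. Macrophages use it to engulf apoptotic cells, and TAM signalling is known to restrain innate immune responses, among them type I interferon and cytokine signalling. Cholesterol taken up with engulfed cells activates the liver X receptors (LXR), which in turn induce genes of cholesterol efflux and Mertk itself.

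The 12 libraries held 16629659 to 25653814 reads in genes, with 21187031 to 24869776 in B6 WT, and 3 reads stood for 2.41 to 3.64 normalized counts (reads divided by the size factor of the library). Log2 values of pairs of libraries correlated across genes with Pearson's r of 0.984 to 0.994 over 66 pairs. The libraries of a group did not always lie together. On the first principal component, which held 21.6% of the variance, B6 WT replicates 1 and 2 scored -18.8 and -14.3 and B6 WT replicate 3 scored 15.7, while Mertk-/-V2 replicate 3 scored -22.6 and the other Mertk-/-V2 libraries 3.85 and -3.14. Many of the genes below follow that order, with B6 WT replicate 3 nearest to the knockouts and Mertk-/-V2 replicate 3 nearest to B6 WT, and the counts of the main gene lists are given with and without them. Of the 90 shared genes named by the rule for named genes, 21 kept their call with B6 WT replicate 1 left out, 25 with B6 WT replicate 2 left out, 76 with B6 WT replicate 3 left out and 90 with Mertk-/-V2 replicate 3 left out. Reads of the Y-linked genes Ddx3y, Eif2s3y, Kdm5d and Uty numbered 0 to 1 per library, and Xist lay between 2822 and 5686 normalized counts.

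The label of the cells was checked against marker genes. All 18 macrophage markers were tested, and their summed level ran from 466888 to 496915 normalized counts in B6 WT, from 453969 to 490159 in Mertk-/-V1, from 449649 to 483509 in Mertk-/-V2 and 468414 to 485002 in Mertk-/-V3. In that sum 1 gene held a mean of 161856. Csf1r, the receptor for the growth factor of macrophages, differed by 0.06 on the log2 scale (adjusted p = 0.413), Adgre1, which encodes F4/80, by 0.11 (adjusted p = 0.355), and Itgam by -0.14 (adjusted p = 0.144). Of the 18 markers 1 was called higher (Cd163) and 2 lower (C1qa and Mertk), where 6.65% of all genes were called, and their values are given below. Summed markers of other cells were lower: neutrophil markers lay at 1179 to 1538, B and T cell markers at 76.9 to 163, stromal markers at 54.0 to 93.8 and mast cell and basophil markers at 5.6 to 18.2, with 4 genes of the last list at 0. Erythroid and megakaryocyte markers summed to 5432 to 7328, of which Pf4, a chemokine that macrophages also express, held a mean of 6467, and 2 of the 12 were at 0. Monocyte markers, mostly Chil3, summed to values from 10821 to 11751 in B6 WT, from 12942 to 16215 in Mertk-/-V1, from 12362 to 13274 in Mertk-/-V2 and 8934 to 11748 in Mertk-/-V3. Dendritic cell markers summed to values from 97.0 to 111 in B6 WT, from 137 to 201 in Mertk-/-V1, from 106 to 164 in Mertk-/-V2 and from 125 to 136 in Mertk-/-V3, and the part of these cells in the results below was not tested. In bulk libraries fewer cells of a type and less RNA per cell cannot be told apart.

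Mertk RNA itself did not fall in every line. Mertk (chr2:128698956-128802894, GRCm38) stood at 2414, 2649 and 2881 normalized counts in B6 WT, at 847, 883 and 865 in Mertk-/-V1, at 3589, 3532 and 3579 in Mertk-/-V2 and at 651, 685 and 723 in Mertk-/-V3. The libraries of all 4 groups stood apart from each other, with Mertk-/-V2 above B6 WT and the other lines below it. The log2 difference from B6 WT was -1.61, 0.43 and -1.94 in the 3 lines, and the pooled -1.04 ± 0.05 (SE, 9 against 3 libraries, adjusted p = 3.84e-08) therefore averaged values of unequal sign. Reads summed over the whole gene do not show whether a single exon is missing, so the level in Mertk-/-V2 does not check that deletion. Of the partners of MERTK, none passed the test: Axl differed by 0.08 ± 0.19 (adjusted p = 0.859), Gas6 by 0.09 ± 0.08 (adjusted p = 0.564) and Pros1, which encodes protein S, by 0.01 ± 0.06 (adjusted p = 0.952). Tyro3 was below the minimum level for the test, with 4.93, 6.52 and 6.84 in B6 WT, at 16.4, 18 and 14.6 in Mertk-/-V1, at 6.07, 4.03 and 5.70 in Mertk-/-V2 and at 9.83, 7.46 and 8.03 in Mertk-/-V3.

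Across the transcriptome, macrophages of the 3 lines shared many small differences from B6 WT and few large ones. Of 13420 genes tested with limma, 892 passed an adjusted p of 0.05 in the pooled comparison (6.65%), 476 higher and 416 lower. Of these, 846 (6.30% of the genes tested) lay on the same side of B6 WT in all 3 lines and are called shared: 449 were higher (3.35%) and 397 lower (2.96%). For background, 7356 of the 13420 genes (54.8%) had the same sign in all 3 lines whether or not they passed. The median log2 difference of the shared genes was 0.28 for those higher, with a range of 0.11 to 4.60, and -0.21 for those lower, with a range of -2.72 to -0.11. The absolute difference was below 0.5 in 715 of the 846, and only 24 (0.179%) reached the fold threshold that the study used for DEGs, 19 higher and 5 lower. A minimum mean level set which genes were tested, and 16 of the shared higher genes passed it through their knockout libraries while their B6 WT mean was below 10.

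**Figure D1:**
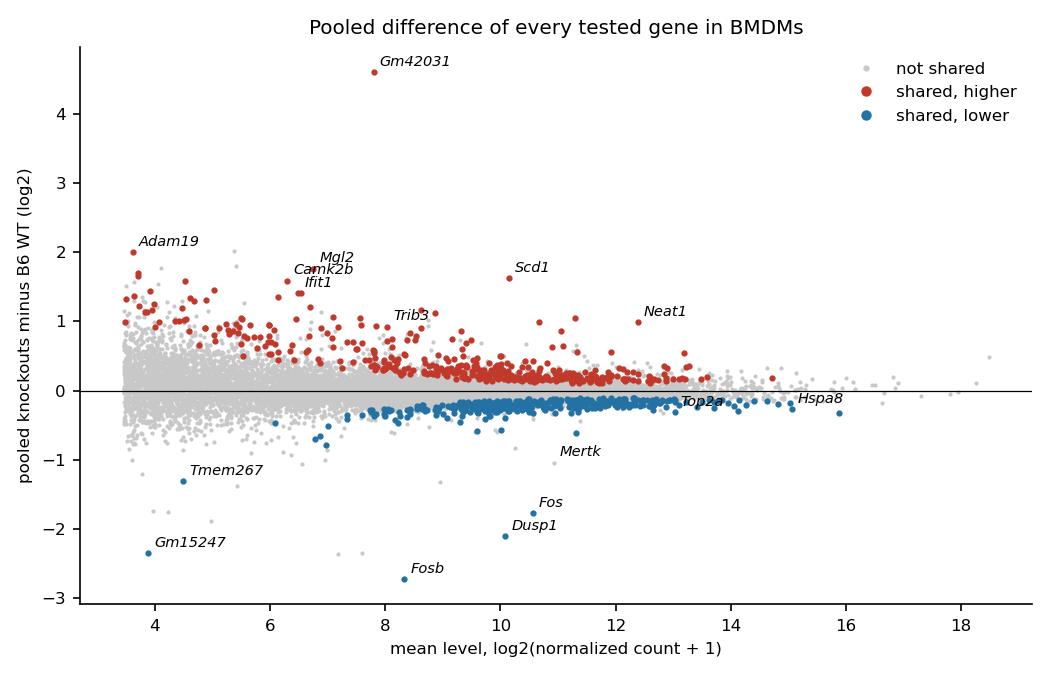
Pooled log2 difference of the 3 Mertk knockouts from B6 WT in BMDMs (vertical axis) against the log2 mean level of each of the 13420 genes tested (horizontal axis), with the shared genes coloured, red for higher (449) and blue for lower (397). Most coloured points lie close to the line at 0, since 715 of the 846 differ by less than 0.5.

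The libraries of the shared genes often stood apart, but their number depended on single libraries. All 9 knockout libraries lay beyond all 3 B6 WT libraries in 480 of the shared genes, 224 higher and 256 lower, where 813 of all genes tested did so (6.06%). The number of shared genes was 95 when B6 WT replicate 1 was left out, 129 when B6 WT replicate 2 was, 987 when B6 WT replicate 3 was and 1743 when Mertk-/-V2 replicate 3 was. Without each of the other 8 libraries it lay between 502 and 794, the lowest values being 502 for Mertk-/-V3 replicate 3, 522 for Mertk-/-V3 replicate 2 and 536 for Mertk-/-V1 replicate 3. Across all 12 such fits 76 genes stayed shared (0.566%), 43 higher and 33 lower. When the 9 knockout libraries were taken as a single group, a model chosen after seeing the data in which the spread between lines enters the error, 257 genes were called, all of them shared. Genes that passed an adjusted p of 0.05 in each of the 3 lines against B6 WT, in the same direction, numbered 53 (0.395%), 30 higher and 23 lower.

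**Figure D2:**
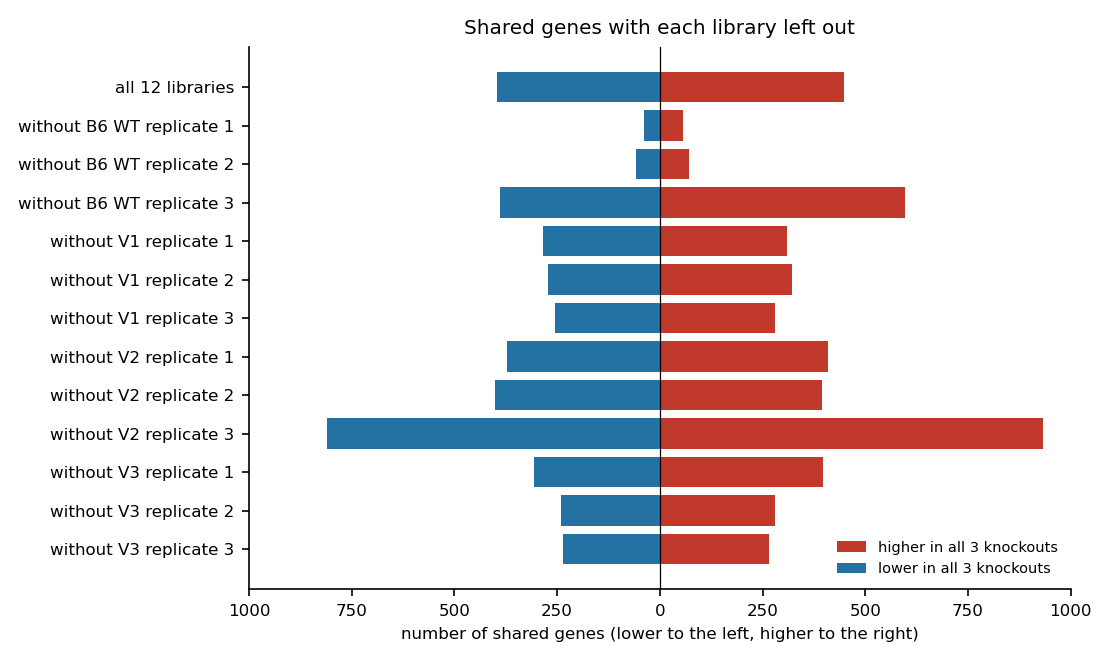
Number of shared genes (horizontal bars, higher and lower shown separately) in BMDMs when each of the 12 libraries was left out in turn, beside the number with all libraries. The count is 95 and 129 with B6 WT replicates 1 and 2 left out and 1743 with Mertk-/-V2 replicate 3 left out.

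Genes of cell division were lower in all 3 knockouts. Of 41 tested genes of a cell cycle list, 20 were shared and lower and none was shared and higher, against 2.96% of all genes lower. The median difference over the list was -0.17, beside a median of -6.8e-05 over all genes, and 37 of the 41 had a pooled value below 0. Their summed level was 146766, 145367 and 139635 in B6 WT and ran from 125753 to 133854 in the knockout libraries other than Mertk-/-V2 replicate 3, which held 141395 and alone reached into the range of B6 WT.

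Genes of mitosis are given first, of which Cep55 and Pbk are shared genes outside the list. Top2a (chr11:98992943-99024189), the topoisomerase that untangles chromosomes before they separate, stood at 9910, 10018 and 9309 normalized counts in B6 WT, at 7594, 8298 and 7922 in Mertk-/-V1, at 7404, 7475 and 8965 in Mertk-/-V2 and at 7452, 7877 and 7774 in Mertk-/-V3. Every knockout library lay below every B6 WT library. Its pooled difference was -0.31 ± 0.05 (adjusted p = 0.0057), with -0.30, -0.30 and -0.34 in the 3 lines, which did not differ detectably from each other (moderated F test, adjusted p = 0.879). Tpx2, a spindle assembly factor, stood at 3773, 3650 and 3419 in B6 WT, at 2947, 3060 and 3017 in Mertk-/-V1, at 2988, 3124 and 3291 in Mertk-/-V2 and at 2966, 2937 and 3033 in Mertk-/-V3. The groups again did not overlap, and the difference of -0.25 ± 0.04 (adjusted p = 0.00293) stayed past the threshold whichever library was left out. The same held for Cep55, which acts in the final cut between daughter cells: it stood at 867, 944 and 939 in B6 WT, at 715, 747 and 766 in Mertk-/-V1, at 745, 741 and 737 in Mertk-/-V2 and at 682, 690 and 779 in Mertk-/-V3, a difference of -0.32 ± 0.05 (adjusted p = 0.00307).

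Bub1b, a kinase of the spindle checkpoint, fell by 0.24 ± 0.04 on the log2 scale (adjusted p = 0.00414), Pbk, a mitotic kinase, by 0.36 ± 0.07 (adjusted p = 0.00811), and Bub1 by 0.29 ± 0.06 (adjusted p = 0.0149). Cdk1, Ccna2, Aurka, Birc5, Cenpe and Plk1 were also shared and lower, with values between -0.33 and -0.21. Some members with roles in replication did not pass: Mcm2 differed by -0.04 (adjusted p = 0.601), Mcm7 by -0.04 (adjusted p = 0.559) and E2f1, a transcription factor of the G1/S transition, by 0.01 (adjusted p = 0.903), although Pcna, the replication clamp, fell by 0.17. Mki67, the proliferation marker, missed the threshold with -0.19 (adjusted p = 0.109). A list member with the opposite role, Cdkn1a, which encodes the cell cycle inhibitor p21, was also lower: it stood at 7648, 7731 and 7454 in B6 WT, at 6523, 6523 and 6586 in Mertk-/-V1, at 6165, 6229 and 6427 in Mertk-/-V2 and at 7328, 7537 and 7531 in Mertk-/-V3. The lines differed in this gene (adjusted p = 0.00249), with -0.22, -0.28 and -0.03. Tuba1b, an alpha-tubulin chosen after its values were seen, fell by 0.29 ± 0.03 (adjusted p = 0.000339) with no overlap between knockouts and B6 WT.

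The number of shared cell cycle genes was 2 when B6 WT replicate 1 was left out and 4 when B6 WT replicate 2 was, and 11 when the knockouts were taken as a single group. It was 18 with B6 WT replicate 3 left out and 27 with Mertk-/-V2 replicate 3 left out, and the median of the list lay between -0.19 and -0.14 in all 12 fits without a library.

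The promoters of these genes are shown where they carry the sequence elements known for such groups. Each sequence is from RefSeq (GRCm38.p6), covers the 250 bases before the first base of the transcript, is written 5' to 3' on the strand of the gene, and has the matched letters in capitals. The promoter of Top2a (chr11:99024190-99024439, minus strand) holds 2 matches to TTTGAA, the letters of the cell cycle genes homology region, and 6 to CCAAT, the box bound by NF-Y, counting both strands. The element is known from genes that peak before mitosis.
Top2a: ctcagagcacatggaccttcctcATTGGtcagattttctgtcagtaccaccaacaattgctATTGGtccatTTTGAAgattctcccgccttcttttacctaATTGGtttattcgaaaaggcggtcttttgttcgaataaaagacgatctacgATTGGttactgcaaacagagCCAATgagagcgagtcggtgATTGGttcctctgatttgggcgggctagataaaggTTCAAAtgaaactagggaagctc
Over 9325 of 13398 tested gene symbols with an entry, TTTGAA occurred in 12.7% of promoters and CCAAT in 41.0%, and over all 32851 promoters in 16.0% and 33.8%. Among the 18 shared cell cycle genes with an entry, 6 held TTTGAA (33.3%) and 14 held CCAAT (77.8%). A match is a description of the letters and not a site of binding.

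Genes induced by type I interferon were higher, as a list, in all 3 lines, but few of them passed the test. Of 38 tested members, 35 had a pooled value above 0, 34 were above B6 WT in each line, and 3 were shared (Ifit1, Mx1 and Ifit2), where 3.35% of all genes were shared and higher. The median over the list was 0.56, and 0.54 in each of the 3 lines. Mx1, which encodes an antiviral GTPase, stood at 41.9, 21.2 and 62.5 normalized counts in B6 WT, at 123, 134 and 116 in Mertk-/-V1, at 165, 109 and 60.8 in Mertk-/-V2 and at 65.5, 70.4 and 137 in Mertk-/-V3. The overlap came from Mertk-/-V2 replicate 3, which lay below B6 WT replicate 3. The pooled difference of Mx1 was 1.41 ± 0.32 (adjusted p = 0.0219), with 1.67, 1.41 and 1.14 in the lines. Ifit1 (chr19:34640871-34650009), which binds foreign RNA, stood at 32.9, 29.3 and 49.8 in B6 WT, at 91.6, 99.0 and 139 in Mertk-/-V1, at 187, 82.7 and 48.4 in Mertk-/-V2 and at 99.4, 62.9 and 145 in Mertk-/-V3. It rose by 1.41 ± 0.33 (adjusted p = 0.0246), and again only Mertk-/-V2 replicate 3 reached into the range of B6 WT.

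Ifit2 rose by 0.73 ± 0.20 (adjusted p = 0.0444) and stood at 238, 214 and 263 in B6 WT, at 396, 412 and 434 in Mertk-/-V1, at 628, 426 and 263 in Mertk-/-V2 and at 305, 311 and 497 in Mertk-/-V3. Other members were as high without passing: Ifi44 had a value of 1.35 (adjusted p = 0.16), Oasl1 of 1.26 (adjusted p = 0.071) and Ifit3 of 1.14 (adjusted p = 0.13). Ifnar1, which encodes a subunit of the interferon receptor, had a value of 0.10 and Tmem173, which encodes the DNA-sensing adaptor STING, a value of -0.01, and neither passed the test.

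The summed level of the interferon list differed between libraries of the same group. It lay at 31417, 30702 and 36901 in B6 WT, at 39490, 38055 and 39870 in Mertk-/-V1, at 47327, 40520 and 28767 in Mertk-/-V2 and at 37104, 36804 and 46938 in Mertk-/-V3. Mertk-/-V2 replicate 3 held the lowest sum of the 12 libraries, and without it 30 members were shared and higher. With B6 WT replicate 1 or 2 left out none was at limma's adjusted p of 0.05, while 11 and 9 members were higher at an unadjusted p of 0.05, and without B6 WT replicate 3 there were 7. With DESeq2 there were 10 and with edgeR 4, and the median stayed between 0.48 and 0.76 in all 12 fits without a library. The count was 0 when Mertk-/-V1 was left out of the pool, with 24 higher at an unadjusted p of 0.05.

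**Figure D3:**
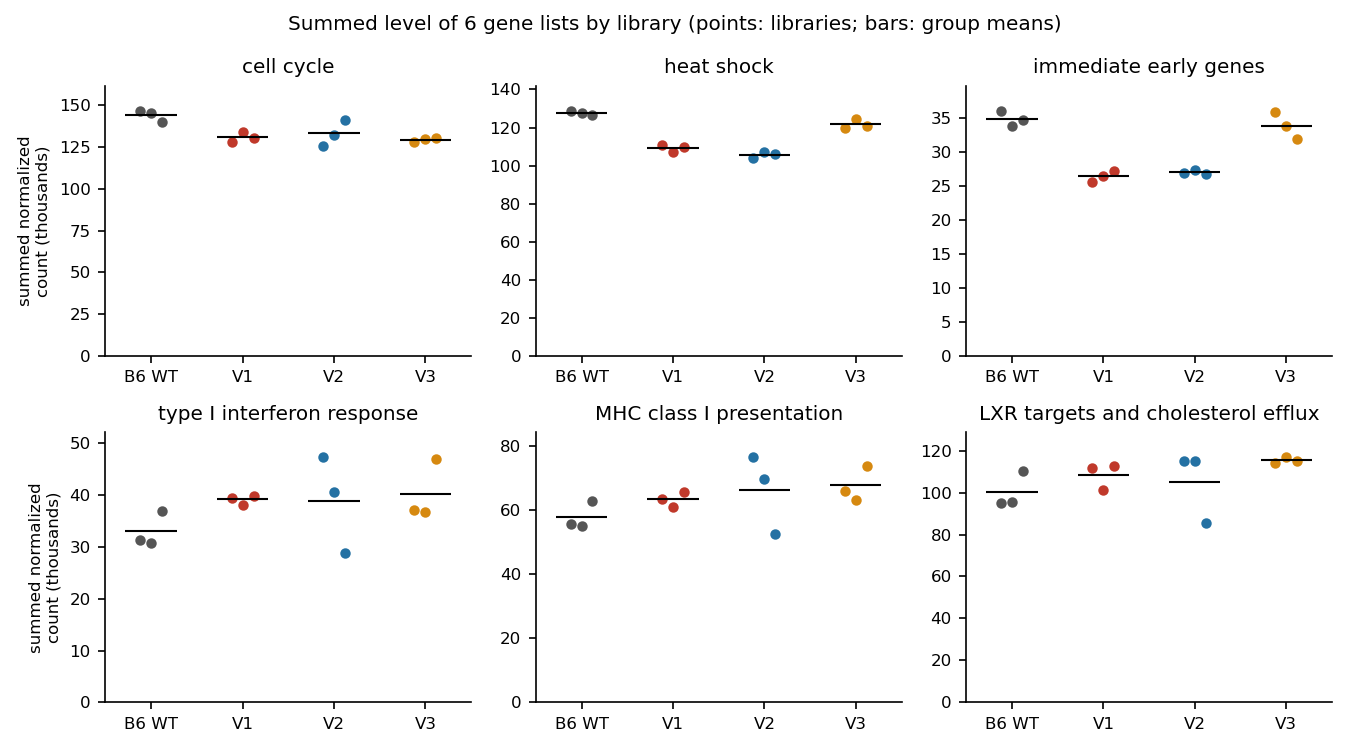
Summed normalized counts (vertical axis, scaled as labelled) of 6 gene lists in each BMDM library (points, by group on the horizontal axis). Heat shock sums lie below B6 WT in every knockout library, and cell cycle sums in every one but Mertk-/-V2 replicate 3. The sums of the interferon, LXR and MHC class I lists place Mertk-/-V2 replicate 3 below all B6 WT libraries.

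Of 20 tested genes of the interferon gamma response and its GTPases, 2 were shared and higher, Iigp1 and Gbp9, where 3.35% of all genes were. In limma 0 were shared when B6 WT replicate 1 or 2 was left out (3 and 2 higher at an unadjusted p of 0.05), and 5 were shared with Mertk-/-V2 replicate 3 left out. Iigp1, an interferon-induced GTPase, stood at 6.58, 8.15 and 6.84 in B6 WT, at 36.4, 28 and 18 in Mertk-/-V1, at 66.7, 26.2 and 13.3 in Mertk-/-V2 and at 13.1, 13.9 and 26.5 in Mertk-/-V3, with no overlap (1.58 ± 0.39, adjusted p = 0.0295). Its B6 WT mean was below the minimum of the filter, so it was tested only because the knockouts were higher. Gbp9, a guanylate-binding protein, rose by 0.84 ± 0.22 (adjusted p = 0.0353). Nlrc5, the transactivator of MHC class I genes, rose by 0.35 ± 0.09 (adjusted p = 0.0304), with no overlap between knockouts and B6 WT, and H2-Q7, whose reads may be split with its near-identical neighbours, had a value of 1.44 ± 0.36 (adjusted p = 0.0331). Nlrc5 and H2-Q7 were the shared members among 16 tested genes of MHC class I presentation, beside 3.35% of all genes. The median of that list was 0.19. The summed level of that list lay at 55541, 54846 and 62820 in B6 WT, at 63545, 60853 and 65724 in Mertk-/-V1, at 76473, 69574 and 52540 in Mertk-/-V2 and at 65828, 63160 and 73824 in Mertk-/-V3. The shared members ranged from 0 to 9 in fits without a library, where the shared genes in all ranged from 95 to 1743.

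The promoter of Ifit1 (chr19:34640639-34640888, plus strand, RefSeq, GRCm38.p6) is shown because it carries 2 copies of the interferon-stimulated response element, searched as GAAA-NN-GAAA on both strands, starting 104 and 85 bases before the start.
Ifit1: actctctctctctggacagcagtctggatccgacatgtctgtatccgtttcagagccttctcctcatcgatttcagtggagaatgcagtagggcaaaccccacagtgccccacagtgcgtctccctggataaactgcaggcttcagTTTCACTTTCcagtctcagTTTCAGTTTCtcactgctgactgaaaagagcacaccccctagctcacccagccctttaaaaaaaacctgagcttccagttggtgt
Of the 38 tested interferon genes 27 had an entry, and 12 of them held the element (44.4%), where 2.98% of all promoters did. Among all shared higher genes with an entry, in a list or not, it occurred in 12 of 325 (3.69%).

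Immediate early genes, which are transcribed within minutes of a stimulus, held some of the larger drops, and these came from 2 of the 3 lines. Of 24 tested members, 6 were shared and lower and 3 shared and higher, beside 2.96% and 3.35% of all genes. Among the knockouts 13 differed (3.37% of all genes did). Fos stood at 3038, 2377 and 2793 normalized counts in B6 WT, at 389, 490 and 471 in Mertk-/-V1, at 520, 476 and 483 in Mertk-/-V2 and at 3025, 2235 and 1829 in Mertk-/-V3. Fosb stood at 567, 512 and 768 in B6 WT, at 41.1, 35.0 and 25.9 in Mertk-/-V1, at 35.2, 32.3 and 59.8 in Mertk-/-V2 and at 940, 500 and 345 in Mertk-/-V3. Mertk-/-V1 and Mertk-/-V2 lay far below the other groups in both genes, and Mertk-/-V3 overlapped B6 WT. For Fos the log2 difference was -2.60, -2.46 and -0.24 in the lines and -1.77 ± 0.12 pooled (adjusted p = 3.23e-06). For Fosb it was -4.14, -3.86 and -0.15 in the lines and -2.72 ± 0.26 pooled (adjusted p = 0.000119).

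Dusp1, the phosphatase that switches off p38 and JNK kinases, did lie below B6 WT in every knockout library. It stood at 2322, 1995 and 2099 in B6 WT, at 257, 264 and 291 in Mertk-/-V1, at 313, 249 and 281 in Mertk-/-V2 and at 1965, 1650 and 1332 in Mertk-/-V3. Its pooled difference was -2.10 ± 0.10 (adjusted p = 3.84e-08), with -2.98, -2.93 and -0.39 in the lines, which differed from each other (adjusted p = 1.09e-08). With the knockouts as a single group neither Fos (adjusted p = 0.109) nor Dusp1 (adjusted p = 0.0905) passed, and no member of the list did. Ier5 fell by 0.26 ± 0.03 (adjusted p = 0.000359), with -0.26, -0.42 and -0.09 in the lines. Klf2, a transcription factor that holds macrophages quiescent, was chosen after its values were seen. It fell by 0.57 ± 0.08 pooled (adjusted p = 0.00109), with -1.11, -0.52 and -0.07 in the lines, and Mertk-/-V3 overlapped B6 WT. The lines differed in both genes (moderated F test, adjusted p = 0.00038 for Ier5 and 4.3e-05 for Klf2). The members that rose were Myc (0.25, adjusted p = 0.0081), Atf3 (0.26, adjusted p = 0.0047) and Egr3 (0.63, adjusted p = 0.039), and Egr1 had a value of 0.28 (adjusted p = 0.46).

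The promoter of Dusp1 (chr17:26508473-26508722, minus strand, RefSeq, GRCm38.p6) is shown for its match to TGACGTCA, the palindromic cyclic AMP response element, 143 bases before the start.
Dusp1: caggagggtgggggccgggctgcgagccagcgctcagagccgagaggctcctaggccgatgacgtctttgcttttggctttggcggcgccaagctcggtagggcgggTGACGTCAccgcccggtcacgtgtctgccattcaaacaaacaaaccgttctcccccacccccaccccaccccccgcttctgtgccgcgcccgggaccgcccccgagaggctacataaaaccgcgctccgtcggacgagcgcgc
Of 20 tested immediate early genes with an entry, 3 held this element (15%), beside 3.12% of all tested genes and 1.55% of all promoters.

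Chaperone genes were lower in all 3 lines, most in Mertk-/-V1 and Mertk-/-V2. Of 15 tested heat shock genes, 7 were shared and lower, where 2.96% of all genes were, and none shared and higher, and the median of the list was -0.17 (-0.22, -0.24 and -0.05 in the lines). Hsp90aa1, the inducible HSP90, stood at 8266, 8382 and 8586 in B6 WT, at 7150, 7271 and 7256 in Mertk-/-V1, at 6793, 7019 and 7447 in Mertk-/-V2 and at 6796, 7405 and 7340 in Mertk-/-V3. The groups did not overlap, the 3 lines were close to each other (-0.22, -0.25 and -0.23), and the difference of -0.23 ± 0.04 (adjusted p = 0.00351) held in all 12 fits without a library. Hspa8, the constitutive HSP70, stood at 39263, 39338 and 38050 in B6 WT, at 32034, 30454 and 32041 in Mertk-/-V1, at 28517, 30129 and 28759 in Mertk-/-V2 and at 36339, 38065 and 36893 in Mertk-/-V3. Here 1 Mertk-/-V3 library reached above the lowest B6 WT library, and the lines differed from each other (adjusted p = 0.00189). Its pooled difference was -0.26 ± 0.04 (adjusted p = 0.00195).

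Hspd1, the mitochondrial chaperonin, fell by 0.18 ± 0.03 (adjusted p = 0.00605) with no overlap. Chaperones of the endoplasmic reticulum moved with them: Hspa5, which encodes BiP, fell by 0.19 (adjusted p = 0.00891), and Hsp90b1, which encodes GRP94 and was chosen after its values were seen, fell by 0.25 (adjusted p = 0.00164) from 15133, 15458 and 14787 in B6 WT to 11813 to 13964 in the knockouts. The summed level of the list ran from 126669 to 128929 in B6 WT, from 106992 to 110915 in Mertk-/-V1, from 103999 to 107247 in Mertk-/-V2 and from 119500 to 124409 in Mertk-/-V3, with no overlap between knockouts and B6 WT. The shared members numbered 2 when B6 WT replicate 1 was left out and 3 when B6 WT replicate 2 was, and 6 to 8 in the other fits without a library. With the knockouts as a single group there were 2.

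Of 2 promoters of Hspd1, one picked to hold the heat shock element is shown (chr1:55087933-55088182, minus strand, RefSeq, GRCm38.p6). It has 2 overlapping matches to the element, searched as GAA-NN-TTC-NN-GAA on both strands.
Hspd1: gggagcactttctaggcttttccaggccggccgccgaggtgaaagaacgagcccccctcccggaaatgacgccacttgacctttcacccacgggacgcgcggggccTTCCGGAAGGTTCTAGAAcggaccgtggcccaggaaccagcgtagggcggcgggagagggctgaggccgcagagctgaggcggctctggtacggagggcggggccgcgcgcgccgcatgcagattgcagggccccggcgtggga
This element was in 2 of the 11 tested heat shock genes with an entry and in 0.466% of all promoters.

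Several single genes were higher in each line. Trib3, a pseudokinase induced by the integrated stress response, stood at 139, 146 and 181 in B6 WT, at 319, 242 and 316 in Mertk-/-V1, at 346, 328 and 267 in Mertk-/-V2 and at 272, 268 and 300 in Mertk-/-V3. Every knockout library lay above every B6 WT library. The difference was at least 0.85 in each line and 0.92 ± 0.11 pooled (adjusted p = 0.000553), and it passed in all 12 fits without a library. Of 26 tested genes of the integrated stress response, Trib3 was the shared gene that rose, where 3.35% of all genes did, and Cebpg (-0.27, adjusted p = 0.00513) and Hspa5 fell. With DESeq2 3 members were shared and higher, and with the pool lacking Mertk-/-V3 there were 5. Csf1, the growth factor on which macrophages depend, stood at 122, 110 and 172 in B6 WT, at 270, 268 and 326 in Mertk-/-V1, at 335, 279 and 175 in Mertk-/-V2 and at 215, 209 and 264 in Mertk-/-V3. Its groups did not overlap, with B6 WT replicate 3 and Mertk-/-V2 replicate 3 next to each other, and its difference was 0.94 ± 0.17 (adjusted p = 0.00811).

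Mgl2, a galactose-binding lectin known as a marker of alternatively activated macrophages, stood at 32.9, 19.6 and 65.5 in B6 WT, at 171, 125 and 205 in Mertk-/-V1, at 181, 141 and 63.6 in Mertk-/-V2 and at 81.9, 87.4 and 108 in Mertk-/-V3. Only Mertk-/-V2 replicate 3 reached into the range of B6 WT, and the difference was 1.76 ± 0.32 (adjusted p = 0.00811). Its neighbour Clec10a rose by 0.73 ± 0.20 (adjusted p = 0.0467) but passed in only 2 of the 12 fits without a library. Cd163, the scavenger receptor for haemoglobin, stood at 898, 879 and 1103 in B6 WT, at 1307, 1204 and 1304 in Mertk-/-V1, at 1282, 1299 and 1156 in Mertk-/-V2 and at 1117, 1270 and 1135 in Mertk-/-V3, apart from B6 WT in every library (0.36 ± 0.07, adjusted p = 0.00873). These were the 3 shared genes of 16 tested for alternative activation, whose median was 0.13, where 3.35% of all genes were shared and higher. In limma 0 were shared with B6 WT replicate 1 or 2 left out, with 3 and 4 higher at an unadjusted p of 0.05, and 4 were shared and higher with Mertk-/-V2 replicate 3 left out. Mgl2 had values of 1.36 to 2.21 in the 12 fits without a library.

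Adam19, a membrane metalloprotease, stood at 1.64, 1.63 and 4.88 in B6 WT, close to the level of 3 reads, and at 5.62 to 30.5 in the knockouts, with no overlap (adjusted p = 0.0163). Its B6 WT mean was also below the minimum of the filter. The difference of 2.00 ± 0.43 was taken on values with 1 added, and depends on that addition.

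Camk2b and Neat1 were chosen after their values were seen, as genes with large differences in every fit without a library. Camk2b, a calcium-dependent kinase, stood at 22.2, 31.0 and 30.3 in B6 WT, at 43.5, 73.0 and 42.7 in Mertk-/-V1, at 80.1, 69.6 and 92.1 in Mertk-/-V2 and at 137, 147 and 161 in Mertk-/-V3. The lines formed 3 steps above B6 WT (0.88, 1.51 and 2.38), with a pooled difference of 1.59 ± 0.18 (adjusted p = 0.000315), and differed from each other (adjusted p = 0.00383). Neat1, the long non-coding RNA that builds nuclear paraspeckles, stood at 2814, 2731 and 3575 in B6 WT, at 7282, 7861 and 7952 in Mertk-/-V1, at 4468, 4883 and 6099 in Mertk-/-V2 and at 4748, 5372 and 6431 in Mertk-/-V3, with no overlap (0.99 ± 0.10, adjusted p = 0.000174). The neighbouring nuclear RNA Malat1 had a value of 0.20 ± 0.21 (adjusted p = 0.628).

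**Figure D4:**
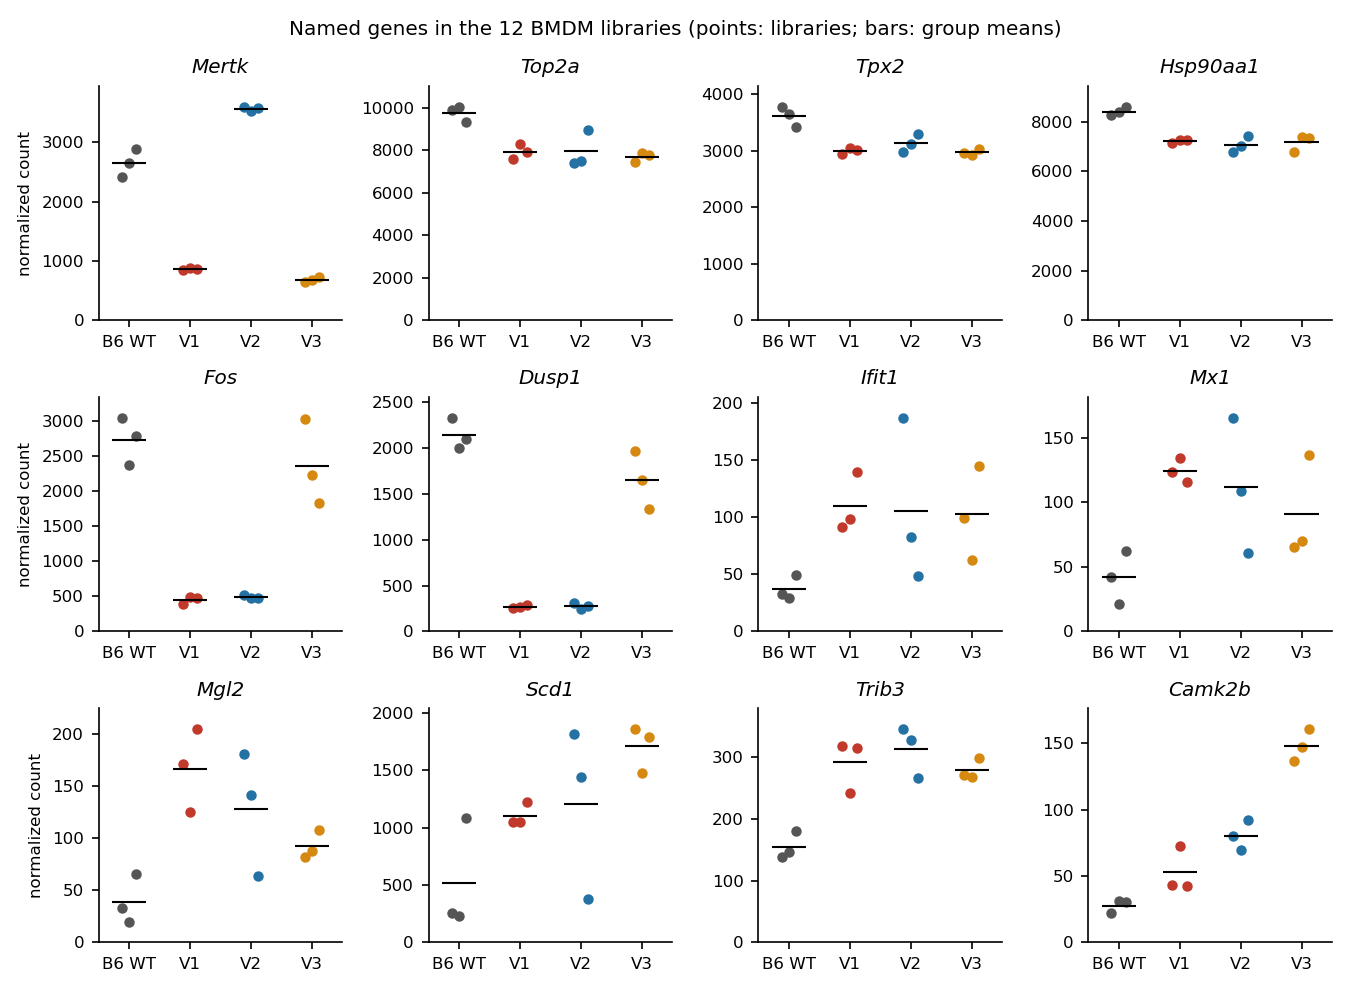
Normalized counts (vertical axis, from 0) of 12 genes in the BMDM libraries of the 4 groups, with points for libraries and bars for group means. Trib3 and Camk2b lie above B6 WT in every knockout library, Top2a, Tpx2, Hsp90aa1 and Dusp1 lie below it, and Mertk is above B6 WT in Mertk-/-V2 and below it in the other lines.

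A few genes that respond to LXR and to lipid were higher. Of 17 tested LXR targets, 4 were shared and higher, where 3.35% of all genes were, and none shared and lower, with a median of 0.15. Scd1, the desaturase that makes monounsaturated fatty acids, stood at 256, 227 and 1082 in B6 WT, at 1046, 1050 and 1222 in Mertk-/-V1, at 1816, 1439 and 379 in Mertk-/-V2 and at 1859, 1478 and 1795 in Mertk-/-V3. Pltp, a phospholipid transfer protein, stood at 695, 747 and 1374 in B6 WT, at 1854, 1471 and 2003 in Mertk-/-V1, at 2197, 1780 and 781 in Mertk-/-V2 and at 2265, 1942 and 2475 in Mertk-/-V3. In both genes B6 WT replicate 3 lay nearer to the knockouts than to its own group, and Mertk-/-V2 replicate 3 lay nearer to B6 WT replicates 1 and 2. Scd1 rose by 1.63 ± 0.45 (adjusted p = 0.0459 in limma and 0.0895 in edgeR), with 1.23 to 2.35 in fits without a library, 2 of which passed. Pltp rose by 1.00 ± 0.26 (adjusted p = 0.0349), and 4 of the 12 fits passed. Cd5l, a secreted LXR target, rose by 0.90 ± 0.20 (adjusted p = 0.0211), and Nr1h2, which encodes LXRbeta, by 0.15 (adjusted p = 0.0286). The efflux transporters Abca1 (0.34, adjusted p = 0.36) and Abcg1 (0.43, adjusted p = 0.24) and Apoe (-0.09, adjusted p = 0.30) did not pass. The shared members numbered 0 with B6 WT replicate 1 or 2 left out, 5 with B6 WT replicate 3 left out, 10 with Mertk-/-V2 replicate 3 left out, and 0 with the knockouts as a single group. At an unadjusted p of 0.05 in limma, 4 and 5 members were higher with B6 WT replicate 1 and with replicate 2 left out. Of 24 tested genes of sterol synthesis none was shared with limma, edgeR or DESeq2, and 0 passed an unadjusted p of 0.05 in limma. When Mertk-/-V2 replicate 3 was left out, 5 were shared and higher, beside 933 of 13402 genes.

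A few clock genes were higher by small amounts. Of 17 tested members 4 were shared and higher, where 3.35% of all genes were, none was shared and lower, and the median was 0.20. Per1, a repressor of the clock, stood at 543, 503 and 510 in B6 WT, at 711, 665 and 696 in Mertk-/-V1, at 627, 600 and 672 in Mertk-/-V2 and at 602, 590 and 611 in Mertk-/-V3. All 9 knockout libraries lay above B6 WT, and the difference of 0.30 ± 0.05 (adjusted p = 0.00395) passed in all 12 fits without a library. Nr1d2 (0.31, adjusted p = 0.0173), which encodes REV-ERBbeta, Per3 (0.34, adjusted p = 0.0452) and Tef (0.20, adjusted p = 0.0424) were the others. Arntl, the activator whose level runs against that of the Per genes through the day, had a value of -0.06 (adjusted p = 0.71). The time of collection is not given in the labels, and its part in these values was not tested. The shared members numbered 1 with either of B6 WT replicates 1 and 2 left out, and 7 with Mertk-/-V2 replicate 3 left out.

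Of 2 promoters of Per1, one picked to hold the E-box CACGTG is shown (chr11:69098699-69098948, plus strand, RefSeq, GRCm38.p6). It belongs to a start inside the gene, which spans chr11:69095217-69109960. The E-box, to which the clock activators bind, lies 166 bases before that start.
Per1: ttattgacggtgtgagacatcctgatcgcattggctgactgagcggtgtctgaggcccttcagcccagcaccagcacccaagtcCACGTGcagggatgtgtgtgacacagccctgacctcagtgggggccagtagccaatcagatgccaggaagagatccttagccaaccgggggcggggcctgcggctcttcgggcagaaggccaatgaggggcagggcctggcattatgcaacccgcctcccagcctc
Of 15 tested clock genes with an entry, 5 held an E-box (33.3%), beside 10.2% of the tested genes and 6.02% of all promoters.

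Genes of energy metabolism lay below B6 WT by small amounts, and few of them passed the test. All 30 tested subunits of oxidative phosphorylation had a pooled value below 0, and 24 were below B6 WT in each line, with a median of -0.10, but only 4 were shared (13.3%, where 2.96% of all genes were shared and lower): Cox6c (-0.19, adjusted p = 0.00948), Ndufv1 (-0.16, adjusted p = 0.0486), Sdhd (-0.13, adjusted p = 0.0285) and Atp5a1 (-0.13, adjusted p = 0.0393). Their number was 0 in limma with B6 WT replicate 1 or 2 left out (9 and 11 lower at an unadjusted p of 0.05), 8 with Mertk-/-V2 replicate 3 left out and 14 with the pool lacking Mertk-/-V3. Of 28 genes of glycolysis and hypoxia 4 were shared and lower, beside 2.96% of all genes, among them Pgk1 (-0.21, adjusted p = 0.0109) and Ldha (-0.15, adjusted p = 0.0343), and Vegfa was the shared gene that rose (0.42, adjusted p = 0.0452). The number of lower ones was 0 in limma with B6 WT replicate 1 or 2 left out (8 and 6 lower at an unadjusted p of 0.05), 8 with Mertk-/-V2 replicate 3 left out and 0 with the knockouts as a single group (8 lower at an unadjusted p of 0.05). Cpt1a, which brings fatty acids into mitochondria, rose by 0.30 (adjusted p = 0.0195). Ribosomal protein genes leaned the same way as the respiratory chain in the pool, with 29 of 30 below 0, a median of -0.07 and 1 shared gene, Rps2. The lean came from Mertk-/-V1 and Mertk-/-V2: the medians were -0.12, -0.12 and 0.01 in the 3 lines. Of the 30 genes, 11 were below B6 WT in each line.

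**Figure D5:**
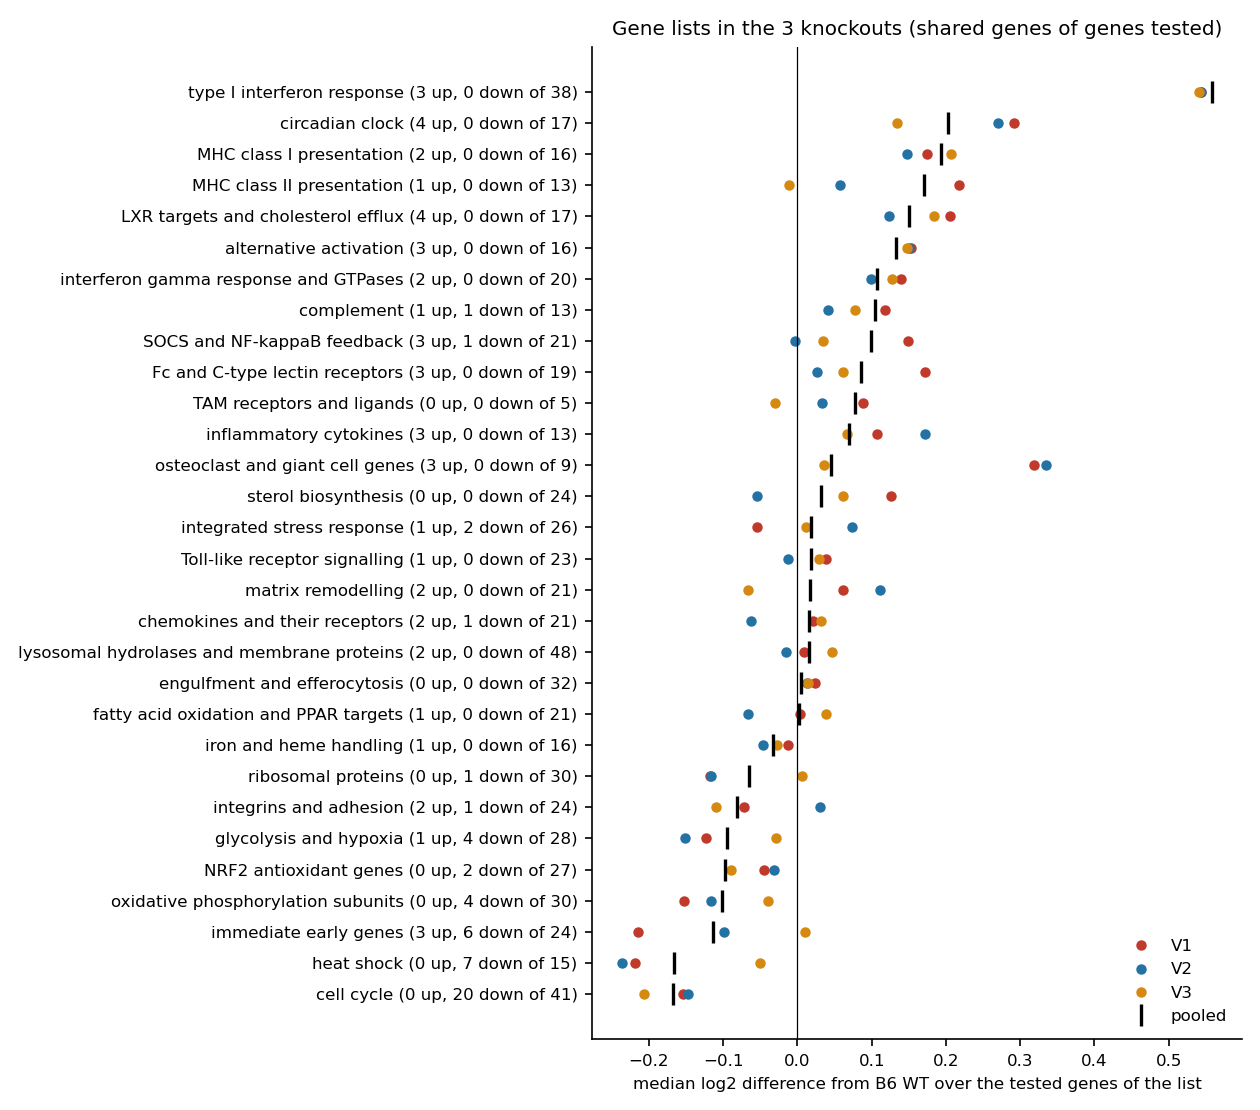
Median log2 difference from B6 WT (horizontal axis) of the pathway gene lists in Mertk-/-V1, Mertk-/-V2, Mertk-/-V3 and the pool, with the numbers of shared genes beside each list. The type I interferon list lies farthest above 0 at 0.56, and the heat shock and cell cycle lists lie lowest at -0.17.

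None of 32 tested genes of engulfment and efferocytosis was shared with limma, edgeR or DESeq2. At an unadjusted p of 0.05 in limma 2 were higher and 2 lower, beside 3005 of all 13420 genes in either direction. Their median was 0.00, with Mfge8 at -0.02 (adjusted p = 0.92), Itgb5 at -0.09 (adjusted p = 0.64) and Cd36 at 0.11 (adjusted p = 0.62). Their shared number reached 3 higher and 4 lower when Mertk-/-V2 replicate 3 was left out, beside 933 higher and 810 lower of 13402 genes. Of 48 lysosomal genes 2 were shared and higher (4.17%), near the 3.35% of all genes: Mcoln1, a lysosomal calcium channel (0.21, adjusted p = 0.0201), and Atp6v0d2 (0.79, adjusted p = 0.0283), a proton pump subunit of osteoclasts and macrophages. Atp6v0d2 was also among 3 shared genes of 9 tested for osteoclasts and giant cells, with Mmp9, which stood at 78.9, 75.0 and 148 in B6 WT, at 150, 201 and 253 in Mertk-/-V1, at 155, 155 and 78.8 in Mertk-/-V2 and at 321, 325 and 327 in Mertk-/-V3 (1.05 ± 0.23, adjusted p = 0.0189), and Dcstamp, which fuses precursors into giant cells (adjusted p = 0.0346). Mmp9 passed in 10 of the 12 fits without a library, all but those without B6 WT replicates 1 and 2. In limma 0 lysosomal genes were shared and higher without either of these (3 and 6 higher at an unadjusted p of 0.05). Without Mertk-/-V2 replicate 3 there were 9, beside 933 of 13402 genes. In the osteoclast list the 3 shared of 9 were all higher, beside 3.35% of all genes. Its numbers were 0 without B6 WT replicate 1 or 2 (4 and 3 higher at an unadjusted p of 0.05) and 4 without Mertk-/-V2 replicate 3.

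Some inflammatory genes were higher. Of 13 tested cytokine genes 3 were shared and higher (23.1%, beside 3.35% of all genes): Csf1, Il1rn, which encodes the interleukin-1 receptor antagonist, and Nlrp3, the inflammasome sensor. In limma 0 were shared with B6 WT replicate 1 or 2 left out, with 4 and 3 higher at an unadjusted p of 0.05, and 3 with Mertk-/-V2 replicate 3 left out. Il1rn differed among the lines (adjusted p = 0.00268), with values of 1.02, 0.20 and 0.09 from the first line to the third. Tnfaip3 (0.25, adjusted p = 0.0168) and Relb (0.32, adjusted p = 0.0304) of the NF-kappaB feedback rose, as did the adhesion molecule Icam1 (0.18, adjusted p = 0.0289). Of 21 tested genes of SOCS and NF-kappaB feedback, 3 were shared and higher and 1 lower, beside 3.35% and 2.96% of all genes. In fits without a library 0 to 4 of them were shared and higher and 1 to 3 lower. Ccr1, a chemokine receptor, fell by 0.24 pooled (adjusted p = 0.00307), and Ccr2 rose by 0.44 (adjusted p = 0.0482). Of 21 tested genes of chemokines and their receptors, 2 were shared and higher and 1 lower. In fits without a library 0 to 7 of these 21 were shared and higher and 1 to 3 lower. For Ccr1 the lines had -0.45, -0.06 and -0.22 and differed from each other (moderated F test, adjusted p = 0.00087). The inhibitory receptor genes Lilr4b (0.54, adjusted p = 0.000174) and Pirb (0.33, adjusted p = 0.0443) rose. Lilr4b stood at 6480, 6723 and 7276 in B6 WT, at 13186, 12823 and 11718 in Mertk-/-V1, at 10504, 9968 and 11214 in Mertk-/-V2 and at 6826, 7257 and 8060 in Mertk-/-V3, so that the third line overlapped B6 WT. Lilr4b and its near-identical neighbour Lilrb4a may share reads, so their separate values are uncertain. C1qa, a chain of the complement protein C1q, stood at 21287, 21529 and 19566 in B6 WT, at 16931, 15278 and 15295 in Mertk-/-V1, at 17112, 18592 and 18953 in Mertk-/-V2 and at 16919, 16799 and 16642 in Mertk-/-V3. No library overlapped, and it fell by 0.30 ± 0.05 (adjusted p = 0.00307) in all 12 fits without a library.

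Among lower genes outside the lists, those with the largest values in their least changed line included Tmem267, Gadd45g, Ppp1r9a, Cd320, Fgfbp3, Klhl6 and Trappc2. Tmem267 stood at 29.6, 43.2 and 46.9 in B6 WT, at 17.6, 20.0 and 18 in Mertk-/-V1, at 10.9, 12.1 and 18 in Mertk-/-V2 and at 16.4, 11.7 and 14.5 in Mertk-/-V3, with no overlap (-1.31 ± 0.23, adjusted p = 0.0057). Klhl6 fell by 0.39 ± 0.05 (adjusted p = 0.00113) in all 12 fits. Gadd45g, a stress-induced growth arrest gene, fell by 0.70 ± 0.17 (adjusted p = 0.0263). Igf2bp3, an RNA-binding protein of fetal cells, stood at 185, 175 and 177 in B6 WT, at 102, 105 and 96.7 in Mertk-/-V1, at 80.1, 63.5 and 82.6 in Mertk-/-V2 and at 140, 149 and 143 in Mertk-/-V3, a difference of -0.79 ± 0.10 (adjusted p = 0.000797) with no overlap.

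Some shared genes are known to vary between sublines of C57BL/6 mice. Of 4 such genes on a list, Ide and Wdfy1 were tested and both were shared, beside 6.30% of all genes. Ide (chr19:37268743-37337852), the insulin-degrading enzyme, stood at 3415, 3131 and 3653 in B6 WT, at 2527, 2968 and 3130 in Mertk-/-V1, at 2300, 2168 and 1997 in Mertk-/-V2 and at 1694, 1909 and 1749 in Mertk-/-V3. It lay below B6 WT in every knockout library (-0.61 ± 0.07, adjusted p = 0.000253), by unequal amounts (F test, adjusted p = 0.000759). Fgfbp3, from the same part of the chromosome (chr19:36917550-36919615), fell by 0.47 ± 0.12 (adjusted p = 0.0402). Wdfy1 stood at 174, 195 and 200 in B6 WT, at 244, 270 and 246 in Mertk-/-V1, at 263, 200 and 245 in Mertk-/-V2 and at 1146, 1240 and 1151 in Mertk-/-V3, so that the pooled difference of 1.12 ± 0.08 (adjusted p = 6.96e-06) came mostly from the third line. Nnt lay at 0.950 to 9.70 normalized counts and was not tested. The part of the line background in the shared genes was not tested.

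The stretch of chromosome 2 around Mertk, from Thbs1 to Plcb1 (chr2:118111876-135475258), held 187 tested genes, of which 21 were shared (11.2%), 10 higher and 11 lower, beside 6.23% of the genes elsewhere. Bub1b and Bub1 lie in it. The others named by the rule were 9830144P21Rik, a non-coding gene that stood at 4.93, 13 and 14.7 in B6 WT and at 13.9 to 41.8 in the knockouts (1.33 ± 0.28, adjusted p = 0.0154), Adam33 (0.79 ± 0.20, adjusted p = 0.0304) and Mfap1b (-0.43 ± 0.08, adjusted p = 0.0118), whose difference was -0.77 in Mertk-/-V1 and -0.29 and -0.23 in the others. Without any gene of chromosome 2, 758 genes were shared.

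Differences among the knockouts bounded how far they can be described together. The moderated F test called 452 of the 13420 genes (3.37%), and 111 of the 846 shared genes (13.1%). Pooled calls that were not shared numbered 46. In Ccl7, a chemokine for monocytes, the values lay at 4102, 3982 and 3909 in B6 WT, at 6411, 6327 and 5546 in Mertk-/-V1, at 6073, 6932 and 6666 in Mertk-/-V2 and at 3861, 3831 and 3795 in Mertk-/-V3. Mertk-/-V1 and Mertk-/-V2 stood above B6 WT and Mertk-/-V3 below it. Ccl2 followed, with 0.44, 0.45 and -0.01 in the lines. G530011O06Rik (chrX:169975043-169978917) ran from 174 to 330 in B6 WT, from 215 to 318 in Mertk-/-V1, from 31.3 to 34.0 in Mertk-/-V2 and from 7.65 to 14.5 in Mertk-/-V3. By this gene Mertk-/-V2 replicate 3 lay with its own line. The range of Mertk-/-V1 lay inside that of B6 WT, so the gene cannot tell a library of B6 WT from one of Mertk-/-V1. Gm15247, the neighbour of G530011O06Rik, was shared by its signs, but its difference was -0.20, -4.46 and -2.38 in the lines.

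The RPE table gave the same pooled contrast in other libraries, 6 of B6 WT, 6 of Mertk-/-V1 and 3 of each other line. There 24 of 18832 genes passed (0.127%). The shared macrophage genes that also passed in RPE were Mx1 (1.67, adjusted p = 0.018), Ifit1 (1.24, adjusted p = 0.00363), Cyth4 (0.71, adjusted p = 0.0132), Wdfy1 (0.87, adjusted p = 0.0132) and Gm15247 (-2.42, adjusted p = 0.00363), each with a pooled value in the direction seen in macrophages. In RPE Mx1, Ifit1 and Cyth4 were above B6 WT in each line. Wdfy1 had 0.18, 0.13 and 2.29 in the RPE of the lines, and Gm15247 had 0.01, -4.14 and -3.12. The interferon list had a median of 0.46 in RPE, with 6 genes called. Over the shared macrophage genes tested in RPE, the median RPE difference was 0.05 for the 430 higher ones and -0.07 for the 394 lower ones. A test of the difference between the tissues, on reads in a single edgeR model, called 21 of 12513 genes (0.168%), 4 with a higher and 17 with a lower value in macrophages. With replicates 1 to 3 of each group alone the balance turned, with 251 called, 154 higher and 97 lower in macrophages. Fos, Fosb and Dusp1 were among those lower, and Trib3 among those higher.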

How the data were processed

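RNA of BMDMs and RPE cells was sequenced as paired-end polyA libraries. The deposited values are a signal per gene: per the study's methods and the submitters' processing notes, the authors aligned reads with STAR to GRCm38 (mm10), summed them per gene, and divided them by DESeq2 size factors, separately for each tissue. The read counter and its use of strand are not given in the sources used here. Dividing each BMDM column by its smallest step gave whole reads for 100% of values (tolerance 0.001), and 0 columns were without a sample. Genes were located by GENCODE M21 (55480 of 55573 matched).

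Pooled and single-line differences and the moderated F test among the lines were computed with limma 3.58.1 (R 4.3.3; lmFit, eBayes with trend) on log2(normalized count + 1) for genes whose mean reached 10, in 1 model of the 4 BMDM groups, with Benjamini-Hochberg adjustment over all genes tested. Every adjusted p in the report is from limma unless edgeR (4.0.16, quasi-likelihood test with TMM, on the recovered reads) is named. DESeq2 1.42.0 was an alternative. Fold changes on this scale understate those of low genes. The p-values measure the spread between libraries, and the number of cultures or mice behind a library was not given in the labels.

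A gene is shared when called at an adjusted p below 0.05 with the 3 line means on the same side of B6 WT. The members and lists were chosen with earlier results of these data known. Named genes are Mertk, its relatives and ligands, the 12 shared genes in each direction with the largest smallest difference over the lines, the 5 such genes of the chromosome 2 stretch, up to 4 shared genes per list by p, the 5 called genes not shared with the lowest p, defining markers, Y-linked genes and Nnt. Of the predicted and poorly annotated genes this rule gives, not all are printed. On simulated data for the pooled BMDM comparison, limma recovered 187 of 200 genes changed by 1 on the log2 scale (93.5%, among 13445 genes, with 8 other calls) and 69 of 200 changed by 0.5 (34.5%, among 13426 genes, with 4 other calls). The simulated counts had a single setting of spread and the same change in each line. No simulated library was set apart from its group, as B6 WT replicate 3 and Mertk-/-V2 replicate 3 were here. These numbers therefore do not give the recovery in the real libraries.

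No pair of libraries within a group agreed within sampling noise (chi-square per degree of freedom 3.40 to 34.0). Library numbers are labels without a stated pairing and were not used in the model. Promoters were matched to genes by symbol in a RefSeq table (GRCm38.p6), with Python 3.11.15.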

Additional observations from a re-analysis of the deposited data

Results flagged for a closer look

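The pooled difference from B6 WT itself differed between macrophages and RPE, in an edgeR test of that difference on reads over all 30 libraries, for 7 of the genes named above. It was lower in macrophages for Fosb (log2 difference -3.63, adjusted p = 0.0012), for Fos (difference -2.21, adjusted p = 0.018), for Dusp1 (difference -2.26, adjusted p = 0.025), for G530011O06Rik (difference -2.11, adjusted p = 0.0057), for C1qa (difference -1.15, adjusted p = 0.049) and for Cyth4 (difference -0.58, adjusted p = 0.049), which was higher than B6 WT in both tissues. It was higher in macrophages for Trib3 (difference 0.96, adjusted p = 0.045). In RPE alone Fosb had a pooled value of 0.82, Fos of 0.40, Dusp1 of 0.10, C1qa of 0.81 and Trib3 of -0.06, none past the test.

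Groups of the macrophage table have 3 libraries each, too few to ask whether a single library stands out by its gap to the others.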

How the results depend on the processing

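With all 12 libraries 892 genes were called, 846 shared, 24 shared past the fold threshold and 480 shared without overlap, and 452 differed among the lines. In that order, other settings gave the following values where they moved by over 1.5 times. Without the filter on low values 524 were called, 495 shared and 315 without overlap. With array quality weights 2797 were called, 2698 shared, 51 past the fold and 882 different among lines. With Y-linked genes as a covariate, which were at 0 to 1 reads, 485 were called, 460 shared, 308 without overlap and 998 different among lines. At an adjusted p of 0.01 the 5 numbers were 186, 168, 10, 127 and 168. With a pseudocount of 5, 13 passed the fold. With the pool lacking Mertk-/-V1 the counts were 320, 309 and, without overlap, 224, and with it lacking Mertk-/-V3 they were 1381, 1370 and, past the fold, 44. With the knockouts as a single group, chosen after seeing the data, they were 257, 257, 11 and 215. With each library left out in turn, called genes ranged from 110 to 1807, shared from 95 to 1743, past the fold from 9 to 45, without overlap from 75 to 903 and different among lines from 180 to 667. The lowest 4 of the first values came without B6 WT replicate 1, and 45 came without B6 WT replicate 3. With replicates 1 to 3 of each group, 8 genes instead of 24 were called in RPE, and 251 instead of 21 differed between the tissues, 154 of them with a higher value in macrophages. The cause of these shifts was not tested.

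The replicate block, with the replicate number as a factor, gave 486 called, 452 shared, 295 without overlap and 294 different among lines. Residuals of libraries with the same number correlated at -0.30 to 0.36 (median -0.09, 18 pairs) and those with different numbers at -0.40 to 0.33 (median 0.04, 36 pairs). With 3 libraries per group these values cannot decide whether libraries of the same number had a culture or batch in common. Of the shared genes named, 90 in all, 55 kept their call under the block, 87 with edgeR, 81 with DESeq2, 30 with the knockouts as a single group, 21 when B6 WT replicate 1 was left out and 25 when B6 WT replicate 2 was. None of the 90 changed direction under these settings. Values that changed sign were those of genes not called: Axl was -0.068 with array weights and -0.10 with the pool lacking Mertk-/-V2, and ranged from -0.041 to 0.19 with a library left out, and Pros1 was -0.038 with the Y-linked covariate, -0.038 with the pool lacking Mertk-/-V1, and ranged from -0.062 to 0.050 with a library left out. With 3 B6 WT libraries behind every value, the level of each of them enters every difference. For genes near 3 reads in B6 WT, such as Adam19, the size of the difference cannot be stated.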
